A study of Homo sapiens with 6 samples.

Results

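Human mitochondrial DNA encodes a small set of transcripts, and the deposited table holds 37 rows for them, the rows among its 39012 whose symbol starts with MT-. They are 13 mRNAs, 2 rRNAs and 22 tRNAs. RNA-seq was made from 6 libraries of Jurkat cells, an established human line from a T cell leukaemia. In 3 libraries the cells were the control, labelled EV, and in 3 they carried stable overexpression of SCML4, which belongs to the Polycomb group of chromatin proteins. The cells of all 6 libraries, controls included, had received 100 ng/ml PMA with 1 µM ionomycin for 6 h, so that no resting cells are compared. The cell type label also calls the line ouabain-induced, an agent that the protocols do not name. Neither a clone nor a pool of stable cells is named, and separate cultures are not stated for the replicates. The p-values below therefore cover no more than the variation among these 6 libraries, part or all of which may be technical. SCML4 had 7, 2 and 1 reads in the EV libraries and 570, 657 and 506 in the SCML4 libraries. The 7 T cell markers examined had 1079 to 7359 reads in every library, and of 10 markers of B, myeloid, erythroid and epithelial cells only CD79A reached 10 reads. The libraries held 8953671 to 10336597 reads.

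Mitochondrial DNA is transcribed from both strands into long precursors. The tRNAs lie between most of the other genes, and their excision by the mitochondrial RNase P and by ELAC2 releases the mRNAs and rRNAs. Both rRNAs, 12 mRNAs and most tRNAs belong to the transcript of the heavy strand, and MT-ND6 with 8 tRNAs to that of the light strand. The mRNAs encode core subunits of respiratory complexes I, III and IV and of the ATP synthase, complex V. The rRNAs and tRNAs serve the mitochondrial ribosome that translates those mRNAs. Most of the mRNAs carry short poly(A) tails, and in several the tail completes the stop codon. Levels are in CPM, the reads of a gene in every 1000000 that its library holds, from whole reads worked out of the deposited FPKM. No strand information is described for the counting, so reads from a gene and from RNA antisense to it cannot be told apart.

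Several sequences bear on how these reads can be read, and are shown from GENCODE 29 transcripts on GRCh38. The submitters' processing notes name hg19, so no coordinates are given. The first pair shows where 2 coding regions on one transcript overlap, with the shared bases in capitals: the last 60 bases of MT-ATP8, of which 46 are also the start of MT-ATP6, and the last 30 of MT-ND4L, of which 7 begin MT-ND4.
MT-ATP8: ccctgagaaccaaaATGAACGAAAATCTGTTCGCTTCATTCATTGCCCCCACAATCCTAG
MT-ND4L: gtacataacctaaacctactccaATGCTAA
The next set shows the last 24 bases of the 6 mRNAs whose length is not a multiple of 3, with the unfinished stop codon in capitals. In the cell the poly(A) tail supplies its missing bases.
MT-ND1: ctccagcattccccctcaaaccTA
MT-ND2: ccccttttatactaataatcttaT
MT-CO3: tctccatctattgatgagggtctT
MT-ND3: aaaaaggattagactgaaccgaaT
MT-ND4: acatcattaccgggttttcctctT
MT-CYB: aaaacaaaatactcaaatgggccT
The other 7 mRNAs, MT-ATP8 and MT-ND4L among them, had lengths that are a multiple of 3. These are annotated lengths, and that of MT-ATP6 includes 1 base shared with MT-CO3. They do not show that each stop codon is complete in the mature mRNA. The last sequence is MT-TP, the proline tRNA and the only tRNA gene with a mean of at least 10 reads. Its 68 bases are written as DNA with the anticodon in capitals, the centre of the single 7-base hairpin loop that RNAfold found.
MT-TP: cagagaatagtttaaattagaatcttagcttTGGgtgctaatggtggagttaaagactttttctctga

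The 13 mRNAs and 2 rRNAs were abundant in every library, and 14 of the 22 tRNAs had no read in any. Levels of different genes were compared per kilobase of GENCODE 29 length, since the lengths behind the deposited FPKM are not those of the genes. For the 15 mRNAs and rRNAs the implied lengths ran from 86 to 10901 bases and were shorter than the annotated gene in 11. They were longer in MT-CO1 (10901 against 1542 bases), MT-ATP6 (9748 against 681), MT-ATP8 (3675 against 207) and MT-CO2 (2244 against 684). These include both ends of the order below. The region counted for each gene is not known, so the levels per kilobase hold only if it was the annotated gene. MT-CO2, which encodes subunit 2 of cytochrome c oxidase, was the highest, at 12344, 14618 and 12908 CPM per kilobase in EV and 12276, 13547 and 13018 in SCML4. Its lowest library lay above the highest library of MT-CO1, the next in order. MT-CO1, MT-ND4, MT-CYB, MT-CO3, MT-ND4L, MT-ATP6 and MT-RNR2 followed at means over 6 libraries of 6712 to 3784 CPM per kilobase. The range over libraries of each overlapped that of its neighbour in this order. Within every library, though, MT-CO1 lay above MT-ND4 and MT-ND4 above MT-CYB. MT-ND3 came after a gap at 2583, and MT-ND1, MT-ND5 and MT-ND2 lay at 2179, 1838 and 1777, each overlapping the next. Below a further gap stood MT-ND6 at 1269.6, MT-RNR1 at 1172 and MT-ATP8 at 713. Among the 13 mRNAs the highest mean was 18.4 times the lowest, and without MT-ATP8 it was 10.3 times.

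**Figure D1:**
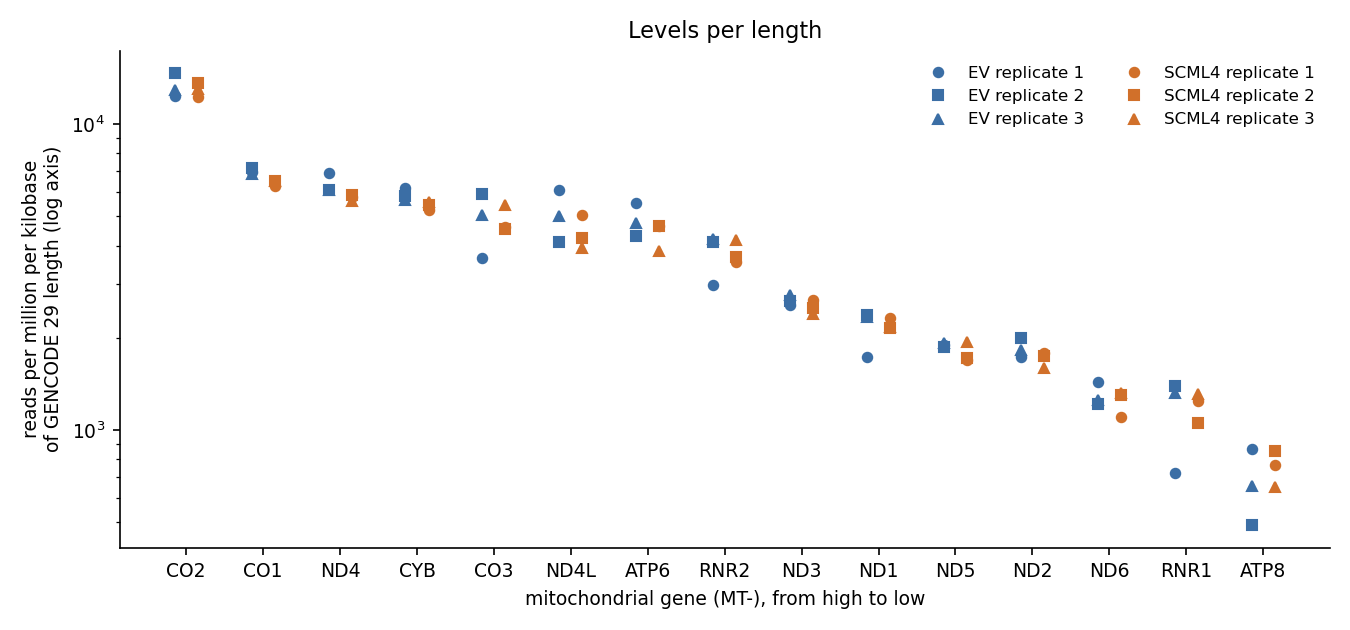
Reads per 1000000 per kilobase of annotated length (log axis) for the 13 mRNAs and 2 rRNAs, ordered from high to low by their mean over 6 libraries, with 1 point per library in blue for EV and orange for SCML4. MT-CO2 lies above all other genes and MT-ATP8 is the lowest by its mean, at 713.

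MT-ATP8 and MT-ATP6, which are known to share one mRNA, were far apart on this scale. MT-ATP8 stood at 866, 488 and 656 CPM per kilobase in EV and 769, 849.7 and 649.6 in SCML4. MT-ATP6 stood at 5523, 4286 and 4747 CPM per kilobase in EV and 4622, 4643 and 3833 in SCML4. The reads of MT-ATP6 were 18.0 to 28.9 times those of MT-ATP8, in genes whose lengths are 681 and 207 bases. Of the 207 bases of MT-ATP8, 46 (22.2%) are also bases of MT-ATP6, as the sequence above shows. Over the 161 bases it does not share, MT-ATP8 had a mean of 917 CPM per kilobase, and MT-ATP6 had 4951 over its 634. How the authors assigned reads that overlap both genes is not given in the sources used here, and its part in the low level of MT-ATP8 was not tested. Both genes also had implied lengths unlike the annotated ones, as given above, so the gap between them is uncertain. MT-ND4L and MT-ND4, which also share an mRNA but only 7 bases, had means of 4735 and 6036 CPM per kilobase. Their ranges over the libraries overlapped, but within every library MT-ND4 lay above MT-ND4L.

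Mitochondrial genes took a slightly smaller share of the reads in all 3 SCML4 libraries than in any EV library. The 37 genes together took 5.82%, 6.21% and 6.01% in EV and 5.57%, 5.70% and 5.77% in SCML4. The means were 6.01% ± 0.194 and 5.68% ± 0.0992 (SD, n = 3 each), a difference of -0.331 percentage points and a ratio of 0.945. The groups did not overlap, and the exact two-sided permutation test gave p = 0.1, the smallest that 3 against 3 libraries allow. In bulk RNA a smaller share from mitochondria cannot be told apart from a larger amount of other RNA.

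The mRNAs made up 5.28%, 5.43% and 5.22% in EV and 4.90%, 5.02% and 4.99% in SCML4, again without overlap, with a difference of -0.341 points (exact permutation p = 0.1, or 0.233 when adjusted over 7 classes by Benjamini-Hochberg). The rRNAs made up 0.533%, 0.775% and 0.782% in EV and 0.670%, 0.673% and 0.778% in SCML4. The groups overlapped, EV replicate 1 being the lowest of all 6, and the difference was 0.0105 points (exact permutation p = 0.9). With that library left out it was -0.0712 points. The share of all 37 genes differed by -0.427 points without that library.

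By complex, the 7 mRNAs of complex I took 1.98%, 1.89% and 1.91% in EV and 1.80%, 1.78% and 1.76% in SCML4. The single mRNA of complex III took 0.705%, 0.664% and 0.641% in EV and 0.596%, 0.620% and 0.635% in SCML4. In both the SCML4 libraries were all below the EV libraries (exact permutation p = 0.1, adjusted p = 0.233). The 3 mRNAs of complex IV took 2.20%, 2.57% and 2.34% in EV and 2.17%, 2.29% and 2.32% in SCML4. The 2 mRNAs of complex V took 0.394%, 0.302% and 0.337% in EV and 0.331%, 0.334% and 0.274% in SCML4. In these last 2 classes the groups overlapped (exact permutation p = 0.4 and adjusted p = 0.56 for each). The share of complex IV differed by -0.114 points, but taken of mitochondrial reads alone by 0.322, where the groups overlapped too. The first of these was -0.199 without EV replicate 1, -0.0126 without EV replicate 2 and -0.0695 without SCML4 replicate 1. The share of complex V differed by -0.0313 points, or by -0.00643, -0.0525 and -0.0121 without EV replicate 1, EV replicate 2 or SCML4 replicate 3. Within mitochondrial reads the makeup was similar in 5 libraries, with mRNAs at 86.5% to 88.1%, and mRNAs took 90.8% in EV replicate 1.

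**Figure D2:**
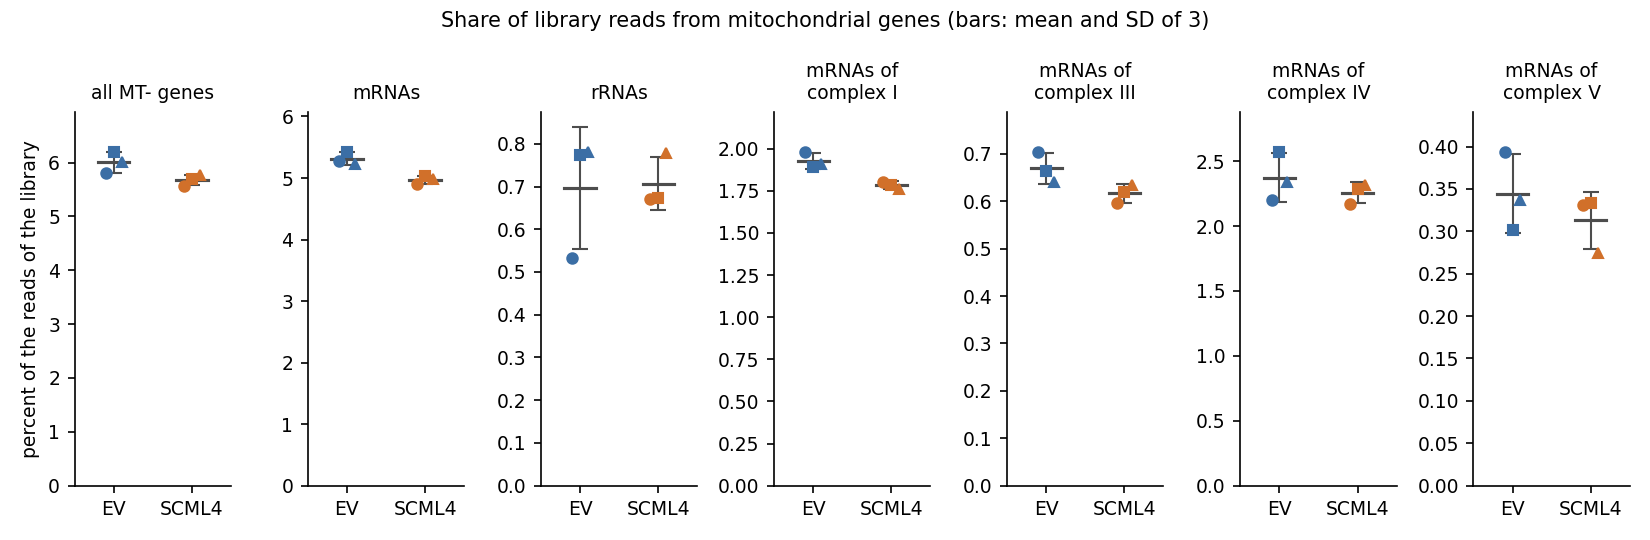
Percent of the reads of each library that came from all 37 mitochondrial genes, from the mRNAs, from the rRNAs and from the mRNAs of each complex, with axes that start at 0. Points are libraries (circle, square and triangle for replicates 1, 2 and 3), and bars give the mean and SD of 3; all SCML4 points lie below all EV points for all genes, the mRNAs, complex I and complex III.

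No mitochondrial gene was called between the groups. By limma-trend on log2(FPKM + 1), with a mean FPKM of at least 0.5 and Benjamini-Hochberg adjustment over 15357 genes, 0 of 21 mitochondrial genes tested passed 0.05, as did 0 of all genes (a background of 0%). SCML4 itself was therefore not called by this fit, for all its reads in the SCML4 libraries. An absence of calls thus does not show that a gene was unchanged. In limma-voom on the reads, 0 of 16 passed, where 0.00706% of all genes did. At an unadjusted p under 0.05 there was 1 in each fit, MT-ND4, against backgrounds of 5.09% and 5.27%. All 15 mRNAs and rRNAs were tested, and 10 of them (66.7%) had negative differences, where 48.3% of all genes tested were negative. Rescaling to TPM or on genes other than the mitochondrial ones also gave 10 negative. Quantile normalization has no bearing on MT-ND4 and MT-RNR2, whose FPKM ranked 1 and 2 of all genes in every library, so that their difference there is 0 by construction. Of the other 13 genes it gave 7 negative and 6 positive with a median of -0.073, where the main fit gave 9 and 4 with a median of -0.078. Over all 15 the median of the main fit was -0.078 in log2, where that of all genes was 0.0058. The 3 values of SCML4 all lay below those of EV in 3 of the 15 (20%) and above them in none, where 5.27% of all genes were lower and 6.02% higher without overlap. At an unadjusted p under 0.05, limma-voom without EV replicate 1 held 6 of 16 mitochondrial genes (background 6.63%), and limma-voom with library weights, in which that library weighs least, held 3 of 16 (background 8.49%). None passed after adjustment in either, where 0.092% and 0.0989% of all genes did. Those 6 were MT-RNR1, MT-RNR2, MT-ND2, MT-CO1 and MT-CO3 with negative differences and MT-ATP8 with a positive one, and the 3 were MT-ND2, MT-CO1 and MT-ATP8. In limma-trend without EV replicate 1 it was MT-CO1 alone, 1 of 22 tested (background 6.03%). These fits were chosen after the data had been seen, except the last. The genes whose groups did not overlap, MT-CO1, MT-ND4 and MT-CYB, held 41.7% to 46.8% of the mitochondrial reads of a library. The 15 genes come from shared precursors and shared libraries, so they are not independent of one another.

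Counting error was smaller than the spread between libraries of a group in all 15 mRNAs and rRNAs. Each of the 15 genes had 905 or more reads in every library. Counting alone gives a coefficient of variation of 0.320% to 2.67% by gene at its mean number of reads. Between libraries of a group it was 1.47% to 32.2%. The median distance from a difference to either end of its 95% interval was 0.23 in log2. Over the 15 genes the bounds ran from -0.58 for MT-ND4L to 0.73 for MT-RNR1.

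**Figure D3:**
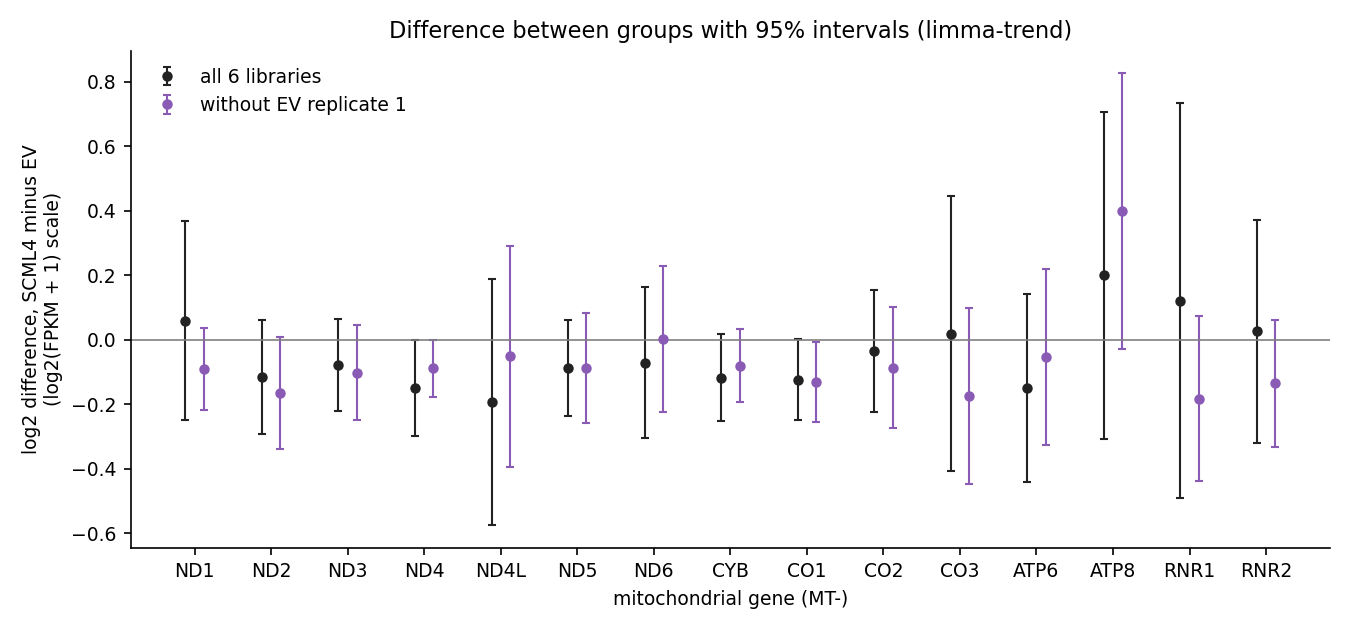
Difference between SCML4 and EV in log2(FPKM + 1) for each mRNA and rRNA, with 95% intervals from limma-trend, for all 6 libraries (black) and without EV replicate 1 (purple). All but 1 of the intervals from 6 libraries, that of MT-ND4, include 0, and MT-RNR1, MT-RNR2, MT-ND1, MT-CO3 and MT-ND6 change sign when EV replicate 1 is left out.

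**Figure D4:**
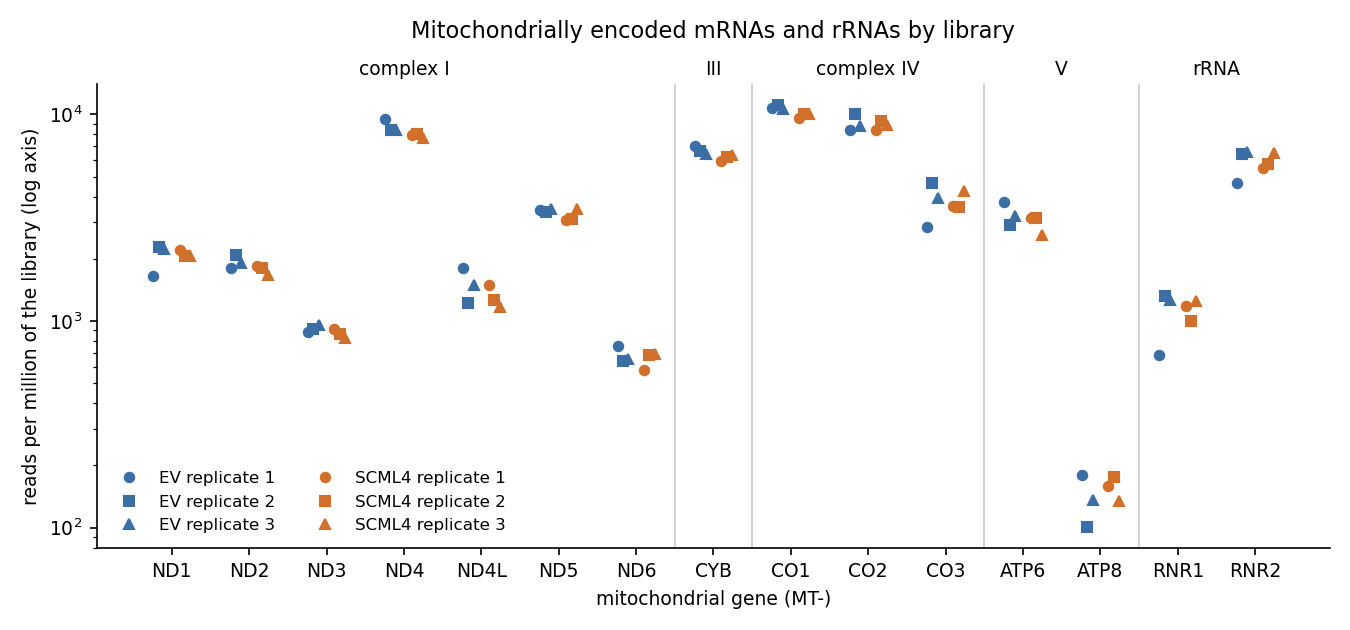
CPM (log axis) for each mRNA and rRNA, grouped by respiratory complex, with EV libraries in blue to the left and SCML4 libraries in orange to the right of each gene. The log axis brings the groups close together, although those of MT-CO1, MT-ND4 and MT-CYB do not overlap. The highest library of MT-RNR1 is 1.93 times the lowest. EV replicate 1 (blue circle) is the lowest point of MT-ND1, MT-CO3, MT-RNR1 and MT-RNR2.

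Complex I, the NADH dehydrogenase that passes electrons to ubiquinone, takes 7 subunits from mitochondrial DNA, all of them in its membrane arm. MT-ND4, one of its antiporter-like subunits, stood at 9492, 8400.4 and 8366 CPM in EV and 7915, 8050.4 and 7681 in SCML4. All SCML4 libraries lay below all EV libraries, with a log2 difference of -0.15 (SE 0.062, adjusted p = 0.905 in limma-trend) and a 95% interval of -0.30 to -0.00055. EV replicate 1 was the highest of the 6, and without it the difference was -0.089. MT-ND4L, translated from the same mRNA, stood at 1809, 1221 and 1487 CPM in EV and 1496, 1259 and 1165 in SCML4. The groups overlapped, the highest and lowest libraries being EV replicate 1 and SCML4 replicate 3, with a difference of -0.19 (SE 0.16, adjusted p = 0.918 in limma-trend). When EV replicate 1 was left out it was -0.052, and without EV replicate 2, SCML4 replicate 1 or SCML4 replicate 3 it was -0.34, -0.29 and -0.11.

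MT-ND5, another antiporter-like subunit at the far end of the membrane arm, stood at 3442, 3376 and 3475 CPM in EV and 3072, 3119 and 3502 in SCML4. The EV libraries had a coefficient of variation of 1.47%, SCML4 replicate 3 was the highest of the 6, and the difference was -0.089 (SE 0.062, adjusted p = 0.913 in limma-trend). It was -0.054 without SCML4 replicate 1 and -0.15 without SCML4 replicate 3. MT-ND2, the third antiporter-like subunit, stood at 1798, 2085 and 1899 CPM in EV and 1852, 1815 and 1662 in SCML4. EV replicate 2 was the highest and SCML4 replicate 3 the lowest, the groups overlapped, and the difference was -0.12 (SE 0.074, adjusted p = 0.905 in limma-trend). It was -0.058 without EV replicate 2 and -0.069 without SCML4 replicate 3. MT-ND1, which helps form the ubiquinone site, stood at 1648, 2273 and 2231 CPM in EV and 2218, 2056 and 2072 in SCML4. EV replicate 1 lay below the other 5 libraries, which ranged from 2056 to 2273 CPM, and the difference of 0.059 (SE 0.13, adjusted p = 0.962 in limma-trend) became -0.091 without it.

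MT-ND3, a small subunit next to the ubiquinone site, stood at 887, 912 and 954 CPM in EV and 918, 865 and 826 in SCML4. Its libraries overlapped, from SCML4 replicate 3 at the bottom to EV replicate 3 at the top, and the difference was -0.078 (SE 0.059, adjusted p = 0.918 in limma-trend), or 0.033 under quantile normalization. Leaving out EV replicate 3, SCML4 replicate 1 or SCML4 replicate 3 gave -0.050, -0.12 and -0.042. MT-ND6 is the only mRNA of the light strand and stood at 754, 638 and 657 CPM in EV and 578, 682 and 691 in SCML4. EV replicate 1 was the highest and SCML4 replicate 1 the lowest, the groups overlapped, and the difference was -0.072 (SE 0.097, adjusted p = 0.945 in limma-trend). It was 0.0012 when EV replicate 1 was left out. Its neighbour MT-ND5, on the opposite strand, had 4.57 to 5.32 times its reads over the 6 libraries.

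Complex III, which passes electrons from ubiquinol to cytochrome c, takes 1 subunit from mitochondrial DNA, cytochrome b. Its gene MT-CYB stood at 7047, 6635 and 6408 CPM in EV and 5957, 6204 and 6353 in SCML4. The groups did not overlap, the nearest libraries being EV replicate 3 and SCML4 replicate 3, and the difference was -0.12 (SE 0.056, adjusted p = 0.905 in limma-trend). Its 95% interval of -0.25 to 0.017 included 0. The difference was -0.080 when EV replicate 1 was left out.

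Complex IV, cytochrome c oxidase, takes its 3 core subunits from mitochondrial DNA. MT-CO1, the catalytic subunit that holds the heme and copper site where oxygen is reduced, stood at 10698, 11094 and 10599 CPM in EV and 9659, 10036 and 10017 in SCML4. Again the groups did not overlap. The means were 10797 ± 262 and 9904 ± 212 CPM (SD, n = 3 each), with a difference of -0.12 (SE 0.052, adjusted p = 0.905 in limma-trend), or -0.13 without EV replicate 1. The adjusted p of MT-CO1 in limma-voom was 0.857.

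MT-CO2, the subunit that takes electrons from cytochrome c, stood at 8443, 9999 and 8829 CPM in EV and 8397, 9266 and 8904 in SCML4. EV replicate 2 was the highest, the other 5 libraries were mixed, and the difference was -0.035 (SE 0.079, adjusted p = 0.964 in limma-trend), or 0.0068 under quantile normalization. MT-CO3, the remaining core subunit, stood at 2862, 4639 and 3952 CPM in EV and 3619, 3555 and 4242 in SCML4. Here EV held both the lowest library, replicate 1, and the highest, replicate 2. The difference of 0.019 (SE 0.18, adjusted p = 0.994 in limma-trend) became -0.17 without EV replicate 1.

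Complex V, the ATP synthase, takes 2 subunits of its membrane part from mitochondrial DNA. MT-ATP6, the subunit that forms the proton path, stood at 3761, 2919 and 3233 CPM in EV and 3147, 3162 and 2610.3 in SCML4. EV replicate 1 was the highest, SCML4 replicate 3 the lowest, and the difference was -0.15 (SE 0.12, adjusted p = 0.918 in limma-trend). Without EV replicate 1 it was -0.052, and without EV replicate 2 or SCML4 replicate 3 it was -0.23 and -0.059. MT-ATP8, a short subunit of the stalk, stood at 179, 101 and 136 CPM in EV and 159, 176 and 134 in SCML4. EV held both ends of the range, replicate 1 at the top and replicate 2 at the bottom. MT-ATP8 had the highest difference of the 15 genes, 0.20 (SE 0.21, adjusted p = 0.929 in limma-trend). Leaving out EV replicate 1 gave 0.40 (limma-trend, adjusted p = 0.83), and without EV replicate 2 it was -0.0046.

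The 2 rRNAs are made next to the heavy-strand promoter and form the small and large subunits of the mitochondrial ribosome. MT-RNR1, the 12S rRNA, stood at 687, 1326 and 1262 CPM in EV and 1181, 1002 and 1252 in SCML4. EV replicate 1 lay far below the other 5 libraries, which ranged from 1002 to 1326. The difference between groups was 0.12 (SE 0.25, adjusted p = 0.961 in limma-trend) with all libraries and -0.18 without EV replicate 1. MT-RNR2, the 16S rRNA, stood at 4642, 6422 and 6555 CPM in EV and 5517, 5732 and 6526 in SCML4. EV replicate 1 was again the lowest, and the difference of 0.026 (SE 0.14, adjusted p = 0.989 in limma-trend) became -0.13 without it. The labels name an mRNA library kit, so these levels may not stand for the amount of rRNA in the cells. Reads of MT-RNR2 were 4.67 to 5.72 times those of MT-RNR1 in 5 libraries and 6.75 times in EV replicate 1.

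The tRNAs gave 1267 reads in all 6 libraries together, and 92.6% of them came from MT-TP. MT-TP, the light-strand tRNA beside the control region whose sequence is shown above, had 180, 152 and 239 reads in the EV libraries, against 185, 247 and 170 in the SCML4 libraries. This came to 18.7, 16.9 and 24.7 CPM in EV and 20.4, 23.9 and 19.0 in SCML4. The groups overlapped, EV holding both the lowest library and the highest, and the difference was 0.081 (SE 0.16, adjusted p = 0.959 in limma-trend).

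Another 7 tRNA genes had a read in at least 1 library, with 0 to 13 reads per library, and are named here after their values had been seen. MT-TY, the tyrosine tRNA, had 4, 0 and 6 reads in the EV libraries, against 13, 4 and 5 in the SCML4 libraries. MT-TL2 had 0 to 9 reads per library, MT-TC 1 to 6, MT-TH 0 to 5 and MT-TF 0 to 4. MT-TS2 had at most 1 read and MT-TL1 had 1 read in SCML4 replicate 2 alone. A divisor common to the counts of such a gene cannot be seen, so these counts are the smallest the FPKM allow. Of the 8 light-strand tRNA genes 3 had a read (MT-TP, MT-TY and MT-TC), and of the 14 heavy-strand ones 5. A count of 0 allows up to 3 reads per library, a limit that covers counting error only. Mature tRNAs are short and tightly folded and are poorly taken up by libraries of this kind, so these counts are no measure of tRNA amount. Of the 22 tRNA genes 6 passed the FPKM filter, and none had an adjusted p below 0.905 in limma-trend.

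EV replicate 1 was unlike the other libraries in the makeup of its mitochondrial RNA, as it was over all genes, where limma gave it the lowest library weight, 0.323. Of the 15 genes, 6 were highest and 4 lowest in that library, and EV replicate 2 was the highest in another 6. The median absolute difference in log2(CPM) over the 15 genes was 0.18 to 0.31 between EV replicate 1 and another library, and 0.0586 to 0.17 between any other 2. Relative to the mean of 6 libraries it was low in MT-RNR1 (-0.67 in log2), MT-CO3 (-0.40), MT-RNR2 (-0.34) and MT-ND1 (-0.33). It was high in MT-ND4L (0.38), MT-ATP8 (0.31) and MT-ATP6 (0.27). The low genes MT-RNR1, MT-RNR2 and MT-ND1 are the first 3 of these 15 in the order of mitochondrial DNA, and MT-CO3 lies further along. Leaving this library out turned the difference of both rRNAs, MT-ND1 and MT-CO3 from positive to negative and that of MT-ND6 to near 0. It left 13 of 15 differences negative, against 48.7% of all genes.

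**Figure D5:**
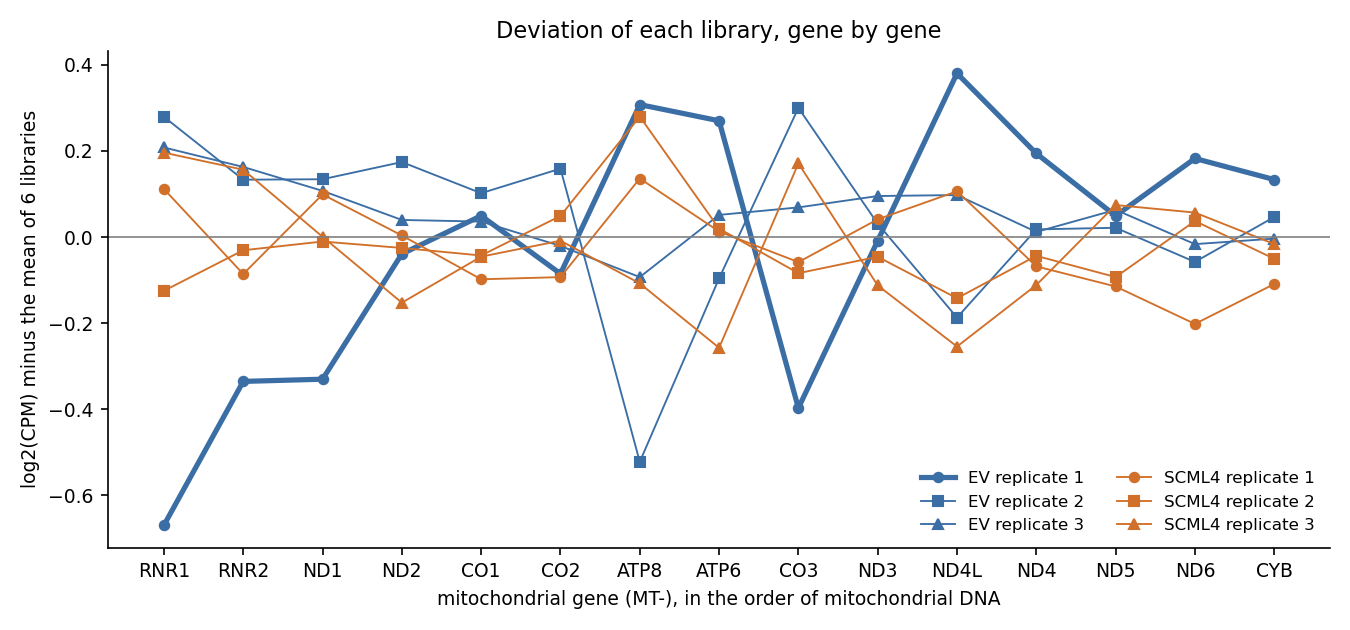
Log2(CPM) of each library minus the mean of 6 libraries for the 15 genes, in their order on mitochondrial DNA, with EV in blue and SCML4 in orange. EV replicate 1 (thick blue line) lies from -0.67 at MT-RNR1 to 0.38 at MT-ND4L, and EV replicate 2 departs most at MT-ATP8, at -0.52.

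GC content was set beside these deviations as a description. Across the 15 genes, which are not independent and whose deviations share a mean that holds EV replicate 1, the deviation of EV replicate 1 had a Spearman coefficient of -0.42 with GC content, against 0.56 in EV replicate 2 and -0.28 to 0.37 in the other 4. The 15 genes range only from 39.6% GC in MT-ATP8 to 47.7% in MT-ND1. The part of GC content in the differences between libraries was not tested.

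Nuclear copies of mitochondrial genes, which can share reads with them, took few reads. Of 415 rows named as such copies (MTRNR2L genes and pseudogenes of the MTND, MTCO, MTCYB, MTATP, MTRNR and MTT families), 82 had a read. Together they had 127 to 243 reads per library, at most 0.0434% of the reads of mitochondrial genes. MTCO3P12, a pseudogene named for MT-CO3, was the highest, with 138, 49 and 62 reads in the EV libraries, against 92, 102 and 67 in the SCML4 libraries. It was highest in EV replicate 1, at 14.3 CPM, where MT-CO3 was lowest, at 2862 CPM. In the other libraries MTCO3P12 stood at 5.46 to 10.1 CPM and MT-CO3 at 3555 to 4639. A link between these values was not tested. MTND6P4 had 8 to 20 reads per library, and MTND4P12, MTND5P11, MTRNR2L8 and MTND4P26 had 2 to 11. It is not known how reads that match both a mitochondrial gene and a nuclear copy were counted. If such reads were dropped, the counts of the copies would not show the loss. The few reads of the copies therefore set no limit on the uncertainty in the levels of the mitochondrial genes.

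The nuclear genes that make and use mitochondrial RNA were not called either. Of 99 such genes listed by role, 96 were tested and 0 passed in limma-trend, with 2 at an unadjusted p under 0.05 (background 5.09%). In limma-voom 0 of 97 passed, with 3 at an unadjusted p under 0.05 (background 5.27%). Differences in limma-trend were positive in 49 and negative in 47 (43 of 96 positive without EV replicate 1), with a median of 0.0077 in log2, close to that of all genes. POLRMT, the mitochondrial RNA polymerase, stood at 54.5, 66.5 and 67.6 CPM in EV and 67.7, 58.9 and 60.8 in SCML4. TFAM, which packs mitochondrial DNA and helps start its transcription, stood at 164, 147 and 149 CPM in EV and 159.6, 146 and 142 in SCML4. In both the groups overlapped, with log2 differences of -0.0044 and -0.0391. In the 17 tested genes of mitochondrial transcription and replication 8 differences were positive and 9 negative, with 11 positive without EV replicate 1. The summed level of that list was 1426, 1404 and 1387 CPM in EV and 1382, 1384 and 1373 in SCML4. These sums did not overlap, with means of 1406 and 1380 CPM, while those of the other lists did. The sums were not tested. MTERF1, a factor that binds the MT-TL1 gene downstream of the rRNAs, stood at 31.1, 28.4 and 30.1 CPM in EV and 24.7, 25.8 and 22.4 in SCML4. The groups did not overlap, and the difference was -0.28 (limma-trend, adjusted p = 0.905). RNASEH1, which removes RNA paired to DNA, had a difference of -0.14, with means of 293 CPM in EV and 266 in SCML4.

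In RNA processing and stability 8 of 21 differences were positive and 13 negative, with 6 positive without EV replicate 1. LRPPRC, which stabilises mitochondrial mRNAs, stood at 124, 108 and 104 CPM in EV and 110.3, 112 and 92.9 in SCML4. Its groups overlapped, with a difference of -0.0885. Leaving out 1 library gave -0.013 (EV replicate 1), -0.14 (EV replicate 3), -0.14 (SCML4 replicate 2) and -0.0025 (SCML4 replicate 3). In that list GRSF1, of the mitochondrial RNA granules, had a difference of -0.0953 and FASTKD1 one of -0.14. GRSF1 was at -0.060 without SCML4 replicate 3, and FASTKD1 at -0.066 without EV replicate 1. Genes that modify tRNAs and rRNAs divided into 13 positive and 9 negative, a lean that turned to 8 positive of 22 without EV replicate 1. The median went from 0.022 to -0.022. In that list ERAL1, a chaperone of the 12S rRNA, had a difference of 0.21, or 0.098 without EV replicate 1. METTL17 had one of -0.14, or -0.22 and -0.089 without SCML4 replicate 1 or 2. Of 22 synthetases and related genes that charge mitochondrial tRNAs, 15 were positive (13 without EV replicate 1), with TARS2 at 0.13 and RARS2 at -0.23, or -0.14 without EV replicate 1. Of 14 translation factors 5 were positive, with or without EV replicate 1, with MTG2, a GTPase of ribosome assembly, at 0.22 and the elongation factor gene TUFM at 0.21, or 0.13 without SCML4 replicate 1. None of these genes had an adjusted p below 0.905 in limma-trend.

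The nuclear genes for the partner subunits of the same complexes were also not called, and 47 of 72 differences were positive (46 without EV replicate 1), where 3 of the 13 mitochondrial mRNAs were positive. Of 72 genes tested 0 passed in limma-trend, with 5 at an unadjusted p under 0.05, near the background of 5.09%. In limma-voom 0 passed, with 6 at an unadjusted p under 0.05 (background 5.27%). The other 25 differences were negative, where 48.3% of all genes tested were negative. The median over all 72 was 0.0665 in log2, against -0.0891 for the 13 mitochondrial mRNAs. The difference between the 2 medians was not tested. SCML4 replicate 3 had the lowest summed level of the 6 libraries for the nuclear subunits of complex I (1520 CPM) and complex V (1155 CPM). For complex III its 439 CPM lay below EV replicates 2 and 3, at 456 and 487. In complex I, 24 of 37 were positive (21 without EV replicate 1), with NDUFA1 at 0.44 and NDUFB7 at 0.41, or 0.25 without EV replicate 1. In complex III, 7 of 9 were positive (5 without EV replicate 1), with UQCRC2 at 0.10 and CYC1, cytochrome c1, at 0.28, or 0.084 without EV replicate 1.

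Complex IV had all 11 nuclear differences positive, with a median of 0.166 in log2, or 0.180 without EV replicate 1. Their summed level was 437, 428 and 465 CPM in EV and 527, 495 and 463 in SCML4, with EV replicate 3 just above SCML4 replicate 3. COX5A, one of these subunits, had a difference of 0.24 and COX7C one of 0.28. Of the 3 mitochondrial mRNAs of that complex MT-CO1 and MT-CO2 had negative differences and MT-CO3 a positive one, which was negative without EV replicate 1. In complex V, 5 of 15 nuclear differences were positive, with ATP5PD at 0.28 and the catalytic subunit gene ATP5F1B at 0.11. Without EV replicate 1 it was 9 of 15, with ATP5F1B at 0.057. All these genes had adjusted p values of 0.905 or more in limma-trend.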

How the data were processed

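Per the file headers, the deposited table holds FPKM, 1 column per library, for genes named by symbol. FastQC, STAR, SAMtools and hg19 are named without versions, per the submitters' processing notes. The counting tool, annotation and gene lengths: not given in the sources used here. Total RNA was extracted with TRIzol and a SMARTer mRNA-seq kit was used, per the labels' protocols.

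Deposited FPKM of any gene step by what 1 read is worth, which gave back the reads and the library totals. Of 23897 genes above 0, 99.996% came out whole in all libraries within 0.002 of a read (more at large counts). Between 99.63% and 99.64% of each total lay on listed genes. Pairs of libraries of a group differed by a chi-square per gene of 2.60 to 11.1, so none was a duplicate. Groups were taken from the titles.

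The main fit was limma-trend (limma 3.58.1, R 4.3.3) on log2(FPKM + 1) after keeping genes whose mean FPKM reached 0.5. A count test was replaced by limma-voom on recovered reads with a mean of at least 10. Differences are on the log2(FPKM + 1) scale, which understates those of low genes. Shares were compared by exact permutation tests (scipy 1.17.1). GENCODE 29 gave lengths, gene order, GC content and sequences, and RNAfold 2.7.2 the tRNA hairpin. The main and limma-voom fits were tried on simulated data in which all genes and libraries had the same added spread. No simulated library stood apart as EV replicate 1 did, so that trial does not cover such a case.

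The members, the 9 lists of nuclear genes and the tests were chosen with earlier results of these data known. Named were all 13 mRNAs and 2 rRNAs, tRNAs with a mean of at least 10 reads, SCML4, the 2 genes of smallest unadjusted p of each list with POLRMT, TFAM and LRPPRC, and the 6 nuclear copies with the most reads. The main fits did not pair libraries by number.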

Additional observations from a re-analysis of the deposited data

How the results depend on the processing

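Counting error was smaller than the spread between libraries for the 13 mRNAs and 2 rRNAs, while tRNAs other than MT-TP had few reads. No mitochondrial gene and none of the nuclear genes of mitochondrial gene expression was called under any of the 21 alternatives of the gene fit. These were pseudocounts of 0.1 and 0.5, no filter or a mean FPKM of at least 5, 3 other scalings, no intensity trend, library weights, a replicate block, a threshold of 0.01, limma-voom, leaving out each library, and 3 chosen after seeing the data (limma-trend on log2(CPM + 1), limma-voom with library weights, and limma-voom without EV replicate 1). A planned quasi-likelihood count test was not run. The file holds FPKM, and limma-voom on the reads worked out of them was run in its place. Adjusted p values of the 13 mRNAs, 2 rRNAs and MT-TP ranged from 0.273 to 1. No scaling moved the median of all genes by over 0.1 in log2.

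No sign of pairing by replicate number was seen. Deviations from the group means correlated at -0.047 to -0.0100 in same-numbered libraries and at -0.042 to 0.068 in the others. This does not show that the libraries were unpaired. With the replicate block 0 genes were called, and the share of all mitochondrial genes differed by the same -0.331 points, with an exact sign-flip permutation p, the smallest that 3 pairs allow, of 0.250. Leaving out 1 library gave -0.427 to -0.233 points for that share. As its groups did not overlap, the sign could not change, so this is no check of the direction. The share of rRNAs ranged from -0.0712 to 0.0532 points and that of tRNAs from -4.53e-05 to 0.000428, both changing sign. As a share of mitochondrial reads, the mean of the mRNAs of complex IV was 0.322 points higher in SCML4, but the groups overlapped. The libraries stood at 37.8%, 41.5% and 38.9% in EV and 38.9%, 40.1% and 40.2% in SCML4. EV replicate 1 was thus the lowest and EV replicate 2 the highest.

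Leaving out 1 library, the log2 difference of MT-RNR1 ran from -0.18 to 0.29, of MT-RNR2 from -0.13 to 0.11, of MT-ND1 from -0.091 to 0.14, of MT-CO3 from -0.17 to 0.17, of MT-CO2 from -0.087 to 0.035, of MT-ATP8 from -0.0046 to 0.40, of MT-ND6 from -0.12 to 0.011, of MT-TP from -0.033 to 0.24, of POLRMT from -0.097 to 0.048 and of TFAM from -0.087 to 0.0085. With library weights, with limma-voom weights and in limma-voom without EV replicate 1, MT-RNR1 was at -0.16, -0.15 and -0.18, MT-RNR2 at -0.11, -0.10 and -0.13, MT-ND1 at -0.058, -0.055 and -0.091, and MT-CO3 at -0.16, -0.16 and -0.17. Quantile normalization put MT-CO2 at 0.0068 and MT-ND3 at 0.033. In limma-voom without EV replicate 1 MT-ND6 was at 0.0015 and TFAM at 0.0084. POLRMT was at 0.00022 after rescaling to TPM, and LRPPRC at 0.0021 with library weights. The cause was not tested.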

Other observations

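Ratios between mitochondrial genes that lie side by side on one precursor are given here, chosen after their values had been seen. MT-ATP6 and MT-CO3 are neighbours whose annotated ends share 1 base. Reads of MT-ATP6 were 1.31, 0.629 and 0.818 across EV and 0.870, 0.889 and 0.615 across SCML4 times those of MT-CO3. The ratio was above 1 in EV replicate 1 and below 1 in the other 5 libraries, and the lowest value was in SCML4 replicate 3. Reads of MT-ND4L were 0.191, 0.145 and 0.178 across EV and 0.189, 0.156 and 0.152 across SCML4 times those of MT-ND4, a narrower range than that of MT-ATP6 to MT-CO3. The ratio of rRNA to mRNA reads was 0.101 in EV replicate 1 and 0.134 to 0.156 in the other 5 libraries. No test was made of these ratios.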
